A study of Danio rerio with 45 samples.

Results

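Transcripts of collagen prolyl 4-hydroxylase were followed in bulk RNA-seq of zebrafish blastula explants that received graded amounts of a Nodal signal. The genes were p4ha2 (ENSDARG00000010085, symbol P4HA2 in the gene table), which encodes a catalytic alpha subunit, and p4hb (ENSDARG00000105116, symbol P4HB), which encodes the beta subunit. They are 2 of the 31465 genes counted. Both were picked by identifier because results of these data had put them among genes that rise with Nodal dose at 6 hours post fertilization (hpf), so their values at that age without inhibitor are given as a description, with no test. The label held in part for p4ha2, which was above the controls at each dose while the doses overlapped each other. It did not hold for p4hb, which increased from 2 to 10 pg at 6 hpf. The p4hb mean at each dose was below that of the controls of the same age.

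The explants were animal-pole tissue of AB strain embryos. Controls were uninjected, and the other embryos received 2, 6 or 10 pg of ndr2 mRNA, which encodes a Nodal ligand, into a single animal-pole cell. In a further condition 10 pg was combined with cycloheximide (CHX, an inhibitor of translation) at 50 µg/µl, added soon after injection and kept until harvest. A group with CHX alone was not analysed here, so a CHX group differs from the control in both treatments. Each of the 5 conditions was collected at 4, 5 and 6 hpf in 3 libraries, giving 15 groups. Nothing in the labels says that replicates came from separate clutches, so p-values measure the spread between these libraries, which may be technical. RNA came from whole explants, in which fewer cells of a type and less RNA per cell cannot be told apart.

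Collagen prolyl 4-hydroxylase is an enzyme of the endoplasmic reticulum made of alpha and beta subunits. It hydroxylates prolines in newly made procollagen chains, which the collagen triple helix needs to be stable at body temperature. The alpha subunit carries the catalytic site. The beta subunit is protein disulfide isomerase, an abundant folding enzyme that also acts outside this complex and keeps the alpha subunits soluble. Nodal is a secreted signal of the TGF-beta family that specifies mesoderm and endoderm in the early fish embryo, and its targets include its own antagonists lft1 and lft2.

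Library totals ran from 12137856 to 28551066 counts. At 4 hpf the third 10 pg column equalled the third CHX column in all genes. Both were left out, so those groups have 2 libraries and 43 libraries were fitted. Levels are in CPM, counts scaled to a fixed library size with the trimmed mean of M values (TMM). CPM does not correct for gene length, so levels are compared within a gene only. Of 21075 genes that passed the filter on low counts, a gene was called at an adjusted p below 0.05 in edgeR's quasi-likelihood test, and the adjusted p-values below come from that test. Reads of ndr2 checked the labels at 4 hpf. They were at most 1.03 CPM in any control library. At 4 hpf they lay at 6.81 to 7.05 CPM with 2 pg. The 6 pg libraries held 32 to 48.3 CPM and the 10 pg libraries 114 to 142 CPM. At 5 hpf these ranges were 1.68 to 3.37, 3.95 to 17.2 and 11.6 to 20.2 CPM. At 6 hpf they were 4.79 to 9.15, 14.3 to 30.7 and 17.9 to 28.5 CPM. The 6 and 10 pg libraries thus overlapped at both later ages. The CHX libraries, which also received 10 pg, held 301 and 82.7 CPM at 4 hpf, outside the range of 10 pg alone. At 5 hpf they held 21.6 to 98.8 CPM, all above 10 pg alone, and at 6 hpf 15.8 to 27.3 CPM. The part of this ndr2 difference in the CHX comparisons was not tested. Counts per gene cannot tell injected ndr2 from the embryo's own. Of 12 Nodal target genes, 10 were called higher with 10 pg at 4 hpf and 11 at each of 5 and 6 hpf, where 0.138%, 0.223% and 0.474% of all genes were. All 10 blastoderm markers reached 1 CPM in each group. Of 16 prechordal plate and hatching gland markers, ctslb was at 0 in each group. At 6 hpf 11 of the 16 reached 1 CPM with 10 pg and 5 in controls. They summed to between 782 and 1108 CPM with 10 pg and between 502 and 523 CPM in controls. Within these sums the listed gene pcdh8 averaged 182 CPM with 10 pg and 0.656 CPM in controls. At that age hhex was at 0 in both groups and he1.2 was at 0 with 10 pg. The 16 notochord and axial mesoderm markers summed to between 903 and 1645 CPM and between 81.7 and 87.1 CPM.

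At 6 hpf p4ha2 was the member with the large response to ndr2. The 3 controls held 0.612, 0.753 and 0.744 CPM, from 12, 16 and 14 counts. With 2 pg the libraries held 23.6, 28.0 and 11.7 CPM. With 6 pg they held 16.1, 52.4 and 36.6 CPM, and with 10 pg 22.6, 42.2 and 36.1 CPM. Every injected library was above every control, while the 3 doses overlapped each other. Controls averaged 0.703 ± 0.0792 CPM, the 2 pg group 21.1 ± 8.44, the 6 pg group 35.0 ± 18.2 and the 10 pg group 33.6 ± 10.0 CPM (SD, n = 3 each), so the mean with 10 pg was 47.8 times that of the controls. The fitted log2 changes against controls were 4.89 ± 0.66 with 2 pg, 5.63 ± 0.68 with 6 pg and 5.57 ± 0.68 with 10 pg (standard error). Most of the rise was therefore present at 2 pg, and 10 pg exceeded 2 pg by 0.67 ± 0.54. Among all genes, 0.384% were called higher with 2 pg at this age, 0.508% with 6 pg and 0.474% with 10 pg.

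The beta subunit gene behaved differently at 6 hpf. Controls held 697, 954 and 691 CPM of p4hb. With 2 pg the values were 346, 377 and 426 CPM, with 6 pg 515, 528 and 417 CPM, and with 10 pg 768, 839 and 515 CPM. All libraries with 2 or 6 pg were below all controls, and the libraries with 10 pg overlapped the controls. Cell markers moved with the 2 pg group as well. Its 20 enveloping layer markers summed to between 27251 and 37481 CPM, against 19394 to 25203 CPM in controls, with 18 and 19 markers at 1 CPM or more and none at 0. Its 11 germ cell markers, all at that level, summed to between 323 and 394 CPM against 496 to 524 CPM. With 6 pg both sums overlapped the controls. The part of these markers in the p4hb values was not tested. Deviations from group means of same-numbered libraries correlated between 10 pg and controls at 0.423 to 0.576. Between 2 pg and controls they correlated at −0.079 to 0.062, and between 6 pg and controls at −0.018 to 0.119. The labels name no batch, and the part of such a difference in the p4hb values was not tested. Controls averaged 781 ± 150 CPM, the 2 pg group 383 ± 40.7, the 6 pg group 487 ± 60.5 and the 10 pg group 707 ± 170 CPM (SD, n = 3 each). Against controls the log2 change was −1.03 ± 0.17 with 2 pg, −0.68 ± 0.17 with 6 pg and −0.14 ± 0.17 with 10 pg. All 3 libraries with 10 pg were above the 3 with 2 pg, a log2 difference of 0.89 ± 0.17. In these comparisons 0.859% of all genes were called lower with 2 pg, 0.128% lower with 6 pg and 0.0237% higher with 10 pg than with 2 pg.

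**Figure D1:**
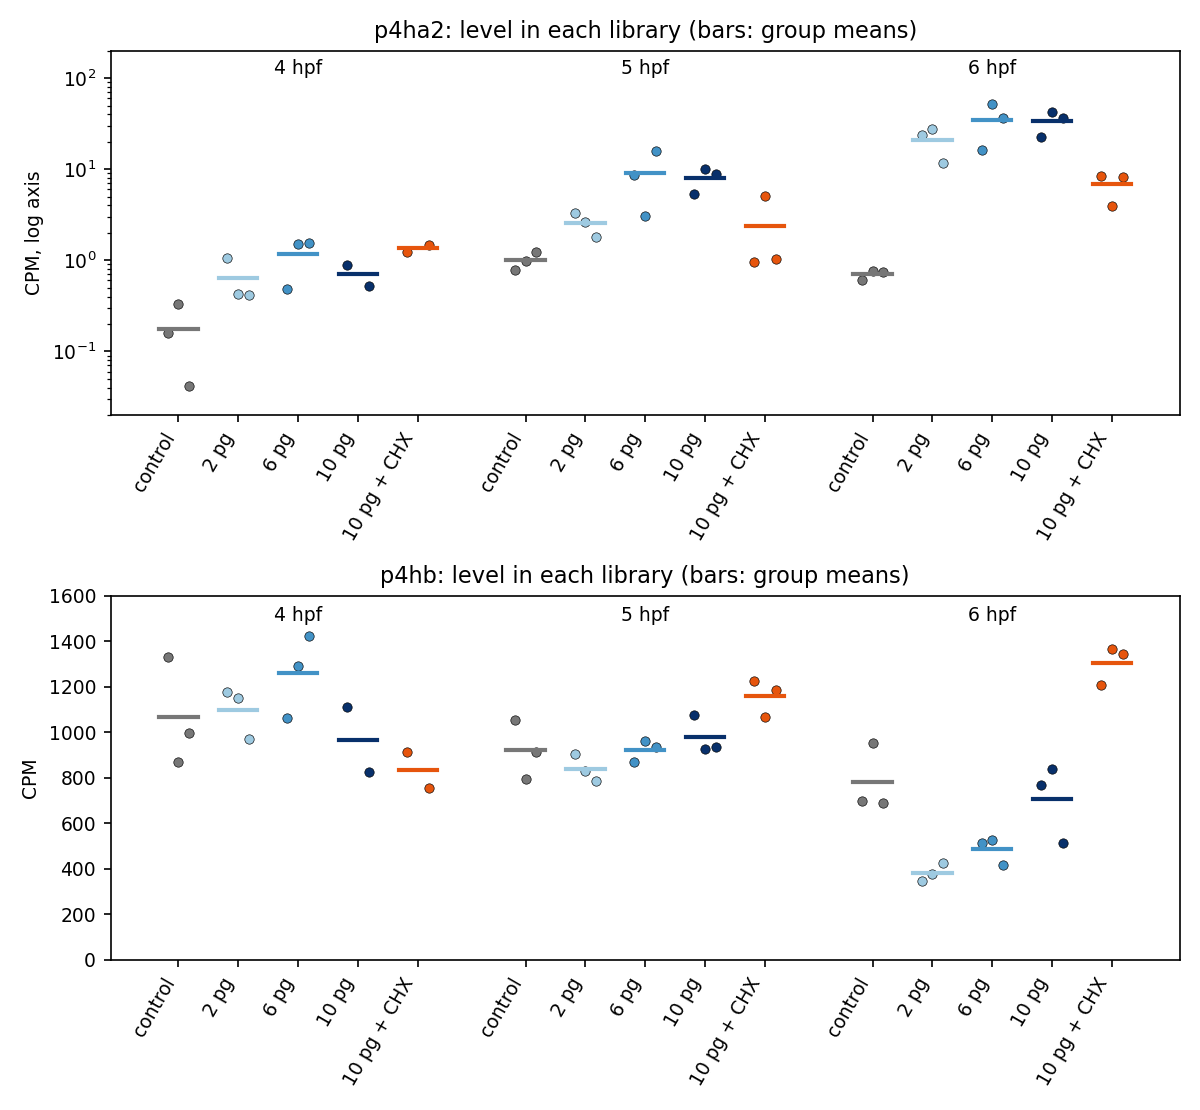
Level in CPM of p4ha2 (log axis) and p4hb (linear axis from 0) in each library, by condition and age. Points are libraries and bars are group means. p4ha2 is at most 1.24 CPM in all controls and between 11.7 and 52.4 CPM with ndr2 alone at 6 hpf, while p4hb stays between 346 and 1424 CPM throughout and is lowest with 2 pg at 6 hpf.

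The values at 4 and 5 hpf were not used to choose the genes, so p4ha2 was tested at these ages. At 5 hpf controls held 0.777, 0.973 and 1.24 CPM of p4ha2. The 2 pg libraries were slightly higher, at 3.31, 2.62 and 1.82 CPM. The 10 pg libraries held 5.28, 10.2 and 8.79 CPM, none overlapping the controls or the 2 pg libraries. The 6 pg libraries were spread widely, at 8.56, 3.03 and 15.7 CPM, and also lay above all controls. p4ha2 was called higher with 10 pg (log2 change 3.01 ± 0.61, adjusted p = 0.0108) and with 6 pg (3.18 ± 0.61, adjusted p = 0.00830), where 0.223% and 0.176% of all genes were called higher. With 2 pg the log2 change was 1.37 ± 0.60 with an adjusted p of 0.947, and the 95% interval ran from 0.14 to 2.60, in a comparison where 0.00474% of genes were called higher. A linear trend over dose gave 3.03 ± 0.54 per 10 pg (adjusted p = 0.00144), with 0.308% of genes called higher. The difference between 10 and 2 pg, 1.64 ± 0.57, was not called (adjusted p = 0.447), with 0.0759% of genes called higher there.

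The 5 hpf calls of p4ha2 with 10 pg and with 6 pg depended on single libraries. With 1 library left out the change stayed between 2.81 and 3.24 with 10 pg, and ranged more widely, from 2.53 to 3.59, with 6 pg. Without control replicate 1 the change with 10 pg was 2.85 (adjusted p = 0.137), without control replicate 2 it was 2.99 (adjusted p = 0.115), and without replicate 2 of 10 pg it was 2.81 (adjusted p = 0.0618). For 6 pg the change was 3.03 without control replicate 1 (adjusted p = 0.116), 3.16 without control replicate 2 (adjusted p = 0.0815) and 2.53 without replicate 3 of 6 pg (adjusted p = 0.153). The trend over dose kept its call when any 1 of the 12 libraries was left out. A fit of the 5 hpf libraries alone gave changes of 3.02 with 10 pg, 3.19 with 6 pg and 3.05 per 10 pg, none called (adjusted p = 0.319, 0.245 and 0.101). Its standard error for 10 pg was 0.70, against 0.61 in the fit of all ages. Control replicate 2 of 5 hpf stood apart in other genes. Its enveloping layer markers summed to 25642 CPM against a lowest sum of 4968 CPM in that group. The 6 hpf controls summed to between 19394 and 25203 CPM. The part of these markers in the p4ha2 result was not tested. Within the 6 pg group the order of the libraries in p4ha2 was the order in tbxta, the Nodal target brachyury, at 92.9, 32.9 and 166 CPM, and in ndr2 itself, at 10.8, 3.95 and 17.2 CPM. It was also the order in p4ha1a, an alpha subunit gene that was higher at 5 than at 4 hpf in controls, at 29.6, 9.96 and 46.9 CPM, and the reverse of that in P4HA1, at 13.3, 30.2 and 9.39 CPM.

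At 4 hpf p4ha2 was close to the limit of detection. The 3 controls held 5, 10 and 1 counts, or 0.159, 0.329 and 0.0419 CPM. The injected libraries held 0.42 to 1.06 CPM with 2 pg, 0.478 to 1.54 CPM with 6 pg, and 0.895 and 0.518 CPM with 10 pg. All were above all controls, yet the groups of different dose overlapped. p4ha2 was called higher with 6 pg (log2 change 2.65 ± 0.70, adjusted p = 0.00959), in a comparison in which 8.44% of all genes were called higher, and without control replicate 1 this call was lost (2.55, adjusted p = 0.0511). With 2 pg the change was 1.76 ± 0.73 (adjusted p = 0.0682), against 15% of genes called higher. Leaving out control replicate 2 raised the 2 pg change to 2.51 (adjusted p = 0.0456). Markers that differ between ages in controls also differed in the 2 pg libraries. Their enveloping layer markers summed to between 901 and 1990 CPM, against 198 to 386 CPM in the controls, with 11 of 20 at 1 CPM or more in each group. The germ cell markers, 11 of 11 at that level, summed to between 1437 and 1747 CPM against 2282 to 3183 CPM. With 6 pg the germ cell sum was also below the controls, at 1684 to 2148 CPM, and the enveloping layer sum overlapped them. With 10 pg it was the enveloping layer sum that differed, at 621 to 745 CPM. p4ha2 itself was higher at 5 than at 4 hpf in controls, and the part of these markers in its 4 hpf values was not tested. The p4ha2 change with 10 pg was 1.92 ± 0.81 (adjusted p = 0.509), against 0.138% called higher. The trend over dose was 1.72 ± 0.72 per 10 pg (adjusted p = 0.383, with 0.214% of genes called higher). The 10 pg effect at 5 hpf exceeded that at 4 hpf by 1.09 ± 1.05, with an adjusted p of 0.916 and a 95% interval from −1.06 to 3.23, where 0.0142% of genes were called higher, so a difference was not detectable at these counts.

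p4hb was abundant at both earlier ages and no dose of ndr2 gave a called change. At 4 hpf the controls held 1330, 871 and 996 CPM, with a mean of 1066 ± 237 CPM. The 2 pg group averaged 1099 ± 113, the 6 pg group 1259 ± 183 (SD, n = 3 each) and the 10 pg group 968 ± 201 CPM (n = 2). At 5 hpf the controls held 1055, 793 and 911 CPM, and the 10 pg libraries 1078, 927 and 933 CPM. Controls then averaged 920 ± 131 CPM, the 2 pg group 839 ± 59.3, the 6 pg group 923 ± 46.8 and the 10 pg group 979 ± 85.2 CPM (n = 3 each). Libraries of each dose overlapped the controls at both ages. The change with 10 pg at 5 hpf was 0.09 ± 0.17 on the log2 scale, with a 95% interval from −0.25 to 0.43. At 4 hpf it was −0.14 ± 0.19, with an interval from −0.52 to 0.24. The widest reach of any dose interval was 0.58, with 6 pg at 4 hpf, so a doubling lay outside all of them. The 6 dose comparisons gave adjusted p-values between 0.341 and 1.

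**Figure D2:**
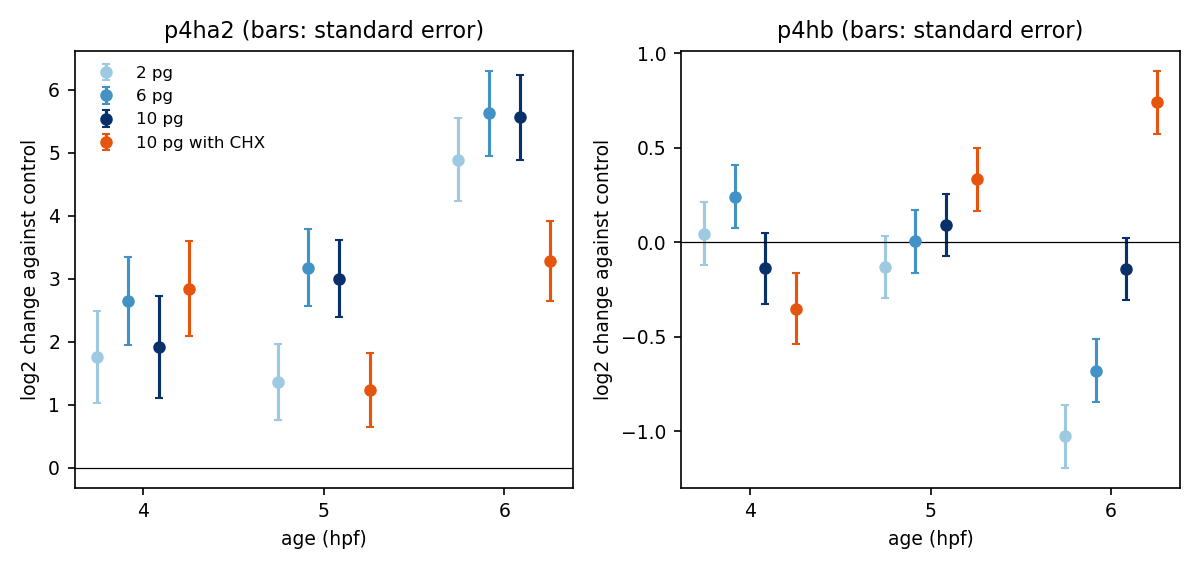
Fitted log2 changes of p4ha2 and p4hb against the control of the same age for each condition, with standard errors. The p4ha2 changes lie between 1.76 and 2.85 at 4 hpf, between 1.24 and 3.18 at 5 hpf and between 3.29 and 5.63 at 6 hpf, and those with 2 pg and with CHX are smaller at 5 than at 4 hpf. The p4hb changes lie between −1.03 and 0.74. The values at 6 hpf without CHX chose the genes and are shown as a description.

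In controls p4ha2 was called higher at 5 than at 4 hpf and p4hb was not called. In uninjected explants p4ha2 rose from 0.177 ± 0.144 CPM at 4 hpf to 0.996 ± 0.231 at 5 hpf (SD, n = 3), a log2 change of 2.42 ± 0.71 (adjusted p = 0.00461), with no overlap. This step was common: 28.4% of all genes were called higher and 25.7% lower between those ages. At 6 hpf the controls were at 0.703 ± 0.0792 CPM, a difference of −0.50 ± 0.64 that is given as a description, with 6.77% of genes called lower. With 10 pg p4ha2 rose by 3.5 ± 0.75 from 4 to 5 hpf (adjusted p = 0.000315), with 23% of genes called higher. The matching rises were 2.03 ± 0.63 with 2 pg (adjusted p = 0.00932) and 2.95 ± 0.60 with 6 pg (adjusted p = 0.000142), with 21.4% and 23% of genes called higher. From 5 to 6 hpf it then went up by 3.02 with 2 pg, 1.95 with 6 pg and 2.06 with 10 pg, again with no overlap between ages, where 6.94%, 4.33% and 7.81% of genes were called higher.

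p4hb in controls changed by −0.21 ± 0.17 from 4 to 5 hpf (adjusted p = 0.285) and by −0.24 ± 0.17 from 5 to 6 hpf. Scaled by library totals the first change was −0.64 (adjusted p = 0.00261), while the median of all genes moved by −0.44. With 6 pg it fell by 0.45 on the log2 scale from 4 to 5 hpf (adjusted p = 0.0263), where 23.3% of all genes were called lower. That call was lost without replicate 2 (−0.43, adjusted p = 0.0626) or replicate 3 (−0.35, adjusted p = 0.121) of 4 hpf, and without replicate 1 (−0.41, adjusted p = 0.0830) or replicate 3 (−0.46, adjusted p = 0.0558) of 5 hpf. With 2 pg the change was −0.39 ± 0.17 (adjusted p = 0.0574), called without replicate 3 of 4 hpf (−0.47, adjusted p = 0.0444), in a comparison in which 20.8% of genes were called lower. From 5 to 6 hpf p4hb went down by a log2 difference of −1.13 ± 0.17 with 2 pg, −0.92 ± 0.17 with 6 pg and −0.47 ± 0.17 with 10 pg, with no overlap between the ages. Those steps had 12.6%, 10.3% and 10.6% of all genes called lower.

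With CHX p4ha2 stood below 10 pg alone at 5 and 6 hpf, while at 4 hpf the difference was not called. At 4 hpf the 2 CHX libraries held 1.25 and 1.47 CPM, above all controls and above the 0.895 and 0.518 CPM of 10 pg alone. The change against controls was 2.85 ± 0.76 (adjusted p = 0.116, with 0.157% of genes called higher), and against 10 pg it was 0.93 ± 0.79 (adjusted p = 0.797, with 0.19% called higher). At 5 hpf the CHX libraries held 0.968, 5.09 and 1.05 CPM, below all 10 pg libraries. The fall relative to 10 pg, a log2 change of −1.77 ± 0.57, was called (adjusted p = 0.00976) where 24.2% of all genes were called lower. Against controls the change was 1.24 ± 0.59 (adjusted p = 0.0828), with overlapping libraries. At 6 hpf the CHX libraries held 8.51, 3.93 and 8.27 CPM, all above the controls and all below 10 pg alone, with log2 differences of 3.29 ± 0.63 and −2.28 ± 0.56 that are given as a description. Genes called higher than controls made up 28.4% there, and genes called lower than 10 pg 27.2%.

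Replicate 2 of CHX at 5 hpf stood apart. It held 5.09 CPM where the others held about 1 CPM, and it was also high in tbxta, at 199.9 CPM against 15.9 and 39.9 CPM, and in GSC, the Nodal target goosecoid, at 95.9 CPM against 25.8 and 17.5 CPM. The Nodal target lft1 was higher there too, at 7.51 CPM against 3.28 and 2.33 CPM. Its paralog lft2 was not raised, at 4.25 CPM against 4.92 and 3.03 CPM. The level of ndr2 was lowest there, at 21.6 CPM against 98.8 and 58.0 CPM. The alpha subunit genes differed there too, with p4ha1a at 2.12 CPM against 0.484 and 0.662 CPM and P4HA1 at 27.6 CPM against 85.5 and 99.6 CPM. In each of these genes, p4ha2 among them, this library lay within the range of the CHX libraries of 6 hpf. Those ranges were 3.93 to 8.51 CPM for p4ha2, 146 to 358 CPM for tbxta and 15.8 to 27.3 CPM for ndr2. Whether the library differed from its group in developmental age was not tested. P4HA1 was also lowest in replicate 2 of controls (3.41 CPM against 27.5 and 38.2) and of 10 pg (10.2 CPM against 30.4 and 39.3). p4ha2 was highest in replicate 2 of 10 pg, whereas p4ha1a and tbxta were not. No fit left out replicate 2 of all these groups together. Without replicate 2 of CHX the difference from 10 pg was −3.00 (adjusted p = 0.000127) and the difference from controls was 0.01 (adjusted p = 0.992). Without replicate 1 or replicate 3 the difference from 10 pg was not called (−1.40, adjusted p = 0.0684, and −1.41, adjusted p = 0.0671), and the difference from controls was (1.61, adjusted p = 0.0348, and 1.59, adjusted p = 0.0376). Within CHX the change from 4 to 5 hpf was 0.81 ± 0.67 (adjusted p = 0.444), and −0.42 without that library (adjusted p = 0.732). From 5 to 6 hpf it was 1.54 ± 0.56 (adjusted p = 0.203, with 0.00949% of genes called higher), and 2.77 without it (adjusted p = 0.00248). The effect of CHX on the 10 pg level was more negative at 5 than at 4 hpf by 2.70 ± 0.97 (adjusted p = 0.0585), in a comparison in which 6.19% of genes were called lower. Without that library this difference was −3.92 (adjusted p = 0.00256), and without replicate 1 of 10 pg at 5 hpf it was −2.93 (adjusted p = 0.0453).

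p4hb with CHX lay at the upper end of its range at 5 and 6 hpf. At 5 hpf the CHX libraries held 1224, 1065 and 1185 CPM, all above the controls, a log2 difference of 0.33 ± 0.17 that was not called (adjusted p = 0.0972) where 24.1% of genes were called higher. Against 10 pg the difference was 0.24 ± 0.17 (adjusted p = 0.234), with overlap. Scaled by library totals these differences were 0.76 and 0.56 and both were called, while the median of all genes moved by 0.44 and 0.33. At 6 hpf the CHX libraries held 1206, 1364 and 1344 CPM, above every other library of that age, by 0.74 ± 0.17 relative to controls and 0.88 ± 0.17 relative to 10 pg as a description, with 28.4% and 29% of genes called higher. Within CHX p4hb changed by 0.47 ± 0.19 from 4 to 5 hpf (adjusted p = 0.0787, no overlap, with 9.71% of genes called higher) and by 0.17 ± 0.17 from 5 to 6 hpf (adjusted p = 0.723). The CHX libraries differed widely in cell markers as well. Their 20 enveloping layer markers summed to between 152 and 647 CPM at 5 hpf and between 433 and 1074 CPM at 6 hpf, with 7 and 9 markers at 1 CPM or more and agr1 at 0. With 10 pg alone the sums ran from 6662 to 12731 CPM at 5 hpf and from 20409 to 28818 CPM at 6 hpf, with 18 and 19 markers at that level. The part of these markers in the p4ha2 and p4hb values was not tested.

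Set in order over the 15 groups, the p4ha2 means ran from 0.177 CPM in 4 hpf controls to 35.0 CPM with 6 pg at 6 hpf. Neighbours in that order overlapped in their libraries in all but 2 steps. The first gap was between the 4 hpf controls and 2 pg at 4 hpf (0.633 CPM), and the other between 2 pg at 5 hpf (2.58 CPM) and CHX at 6 hpf (6.91 CPM). For p4hb the order ran from 383 CPM with 2 pg at 6 hpf to 1305 CPM with CHX at 6 hpf, and all neighbouring groups overlapped. Across the 15 group means the log2 levels of the members had a Pearson correlation of −0.60, a description over groups that share ages and treatments.

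The other alpha subunit genes had patterns of their own. p4ha1a (ENSDARG00000033537) was called higher at 5 than at 4 hpf in all 5 conditions. Between 9.71% (CHX) and 28.4% (controls) of all genes were called higher in these steps. With CHX the 4 hpf libraries held 1 count each. Control libraries held 0.0658 to 0.712 CPM at 4 hpf and 15.97 to 81.2 CPM at 5 hpf, a log2 change of 6.98 ± 0.81 (adjusted p = 2.58e-08). With 10 pg it did not pass the test against controls at 5 hpf (−0.69 ± 0.59, adjusted p = 1) or at 6 hpf (0.33 ± 0.59, adjusted p = 1). At 4 hpf it was called higher with 2 pg (3.12 ± 0.76, adjusted p = 0.00258) and 6 pg (2.45 ± 0.77, adjusted p = 0.0283). Of all genes 15% and 8.44% were called higher there. With CHX it stayed at 2.12 CPM or less at 5 hpf and was called lower than 10 pg by a log2 change of −4.47 ± 0.70 (adjusted p = 4.09e-06), and by −4.64 ± 0.69 at 6 hpf (adjusted p = 1.22e-06). The shares of all genes called lower were 24.2% and 27.2%. P4HA1 (ENSDARG00000071082) was highest at 4 hpf in conditions without CHX. Its mean in controls was 54.5 ± 9.95 CPM at 4 hpf, 23.0 ± 17.8 at 5 hpf and 8.21 ± 4.49 at 6 hpf, with adjusted p-values of 0.0927 and 0.145 for the 2 steps. With CHX it was at 46.1 ± 21.6 CPM at 6 hpf, called higher than 10 pg by 2.62 ± 0.66 (adjusted p = 0.00115), where 29% of all genes were. P4HA3 (ENSDARG00000103692) never exceeded 0.637 CPM and did not pass the filter. In control replicate 2 at 5 hpf p4ha1a held 81.2 CPM and P4HA1 3.41 CPM, the extremes of that group.

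**Figure D3:**
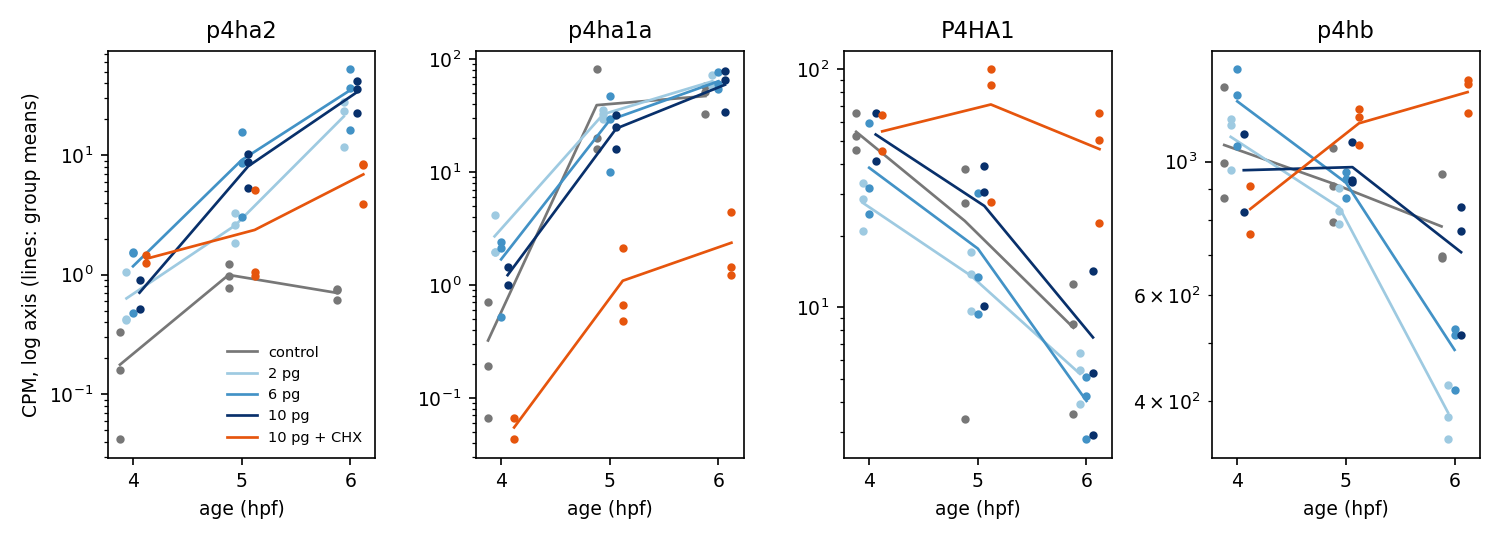
Group means of the collagen prolyl 4-hydroxylase genes that passed the filter, plotted over age for each condition on log axes, with single libraries as points. p4ha2 with ndr2 alone lies above the controls at each age, and with CHX it overlaps them at 5 hpf. p4ha1a is higher at later ages and lowest with CHX. The P4HA1 means are lower at later ages except with CHX, and the p4hb libraries stay within 346 to 1424 CPM.

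Collagen is also modified by prolyl 3-hydroxylases and lysyl hydroxylases, folded and exported with dedicated chaperones, and trimmed and cross-linked outside the cell. Of 106 genes listed for these steps and for the collagen chains, 98 were tested. With 10 pg against controls 0 of 98 were called in either direction at 4, 5 or 6 hpf by edgeR, and 0 by DESeq2. Of all genes edgeR called 0.138%, 0.223% and 0.474% higher and 0.00949%, 0% and 0% lower at these ages, so 0 of 98 is near the background. At an unadjusted p below 0.05 edgeR gave 3 higher and 3 lower at 4 hpf, 1 and 2 at 5 hpf, and 1 and 0 at 6 hpf. The shares of all genes at that p were 4.14% and 4.36% at 4 hpf, 1.86% and 2.50% at 5 hpf, and 1.75% and 0.987% at 6 hpf. Their median log2 change was −0.17, −0.00 and 0.04 at the 3 ages, next to −0.07, −0.04 and −0.00 over all genes. At 4 hpf 14 of the 98 were called higher and 0 lower with 6 pg, and 15 higher and 3 lower with 2 pg. Of all genes 8.44% and 15% were called higher there. At an unadjusted p below 0.05 edgeR gave 24 and 3 with 6 pg, and 18 and 4 with 2 pg. The shares of all genes were 15.5% and 14.8%, and 20.1% and 19.7%. The medians were 0.43 and 0.38, next to 0.01 and −0.03 over all genes. The part of the cell markers that differed in these groups was not tested. At 6 hpf P3H1, a prolyl 3-hydroxylase, held 33.3 ± 17.95 CPM with 10 pg and 21.6 ± 1.27 in controls (0.62 ± 0.62, adjusted p = 1). PLOD3, a lysyl hydroxylase, held 29.97 ± 10.5 and 23.6 ± 5.62 CPM (0.34 ± 0.25, adjusted p = 1). For col18a1a, a basement membrane collagen, the values were 23.8 ± 5.40 and 25.0 ± 2.46 CPM (−0.07 ± 0.23, adjusted p = 1). With 2 pg at 6 hpf, where 0.384% of all genes were called higher and 0.859% lower, 1 of the 98 genes was called, the lysyl oxidase-like gene loxl5a, at 1.85 ± 0.308 CPM against 0.270 ± 0.0844 (2.76 ± 0.70, adjusted p = 0.0388), and it was not called by DESeq2 or without the count filter. DESeq2 called 1 gene of these lists higher there and 0 lower.

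Among 25 tested genes of protein disulfide isomerases and related oxidoreductases other than p4hb, 0 were called with 10 pg at any of the 3 ages by edgeR or DESeq2, which is near the background of at most 0.474% of all genes in a direction by edgeR. At an unadjusted p below 0.05 edgeR gave 0 higher at each age, and 1 lower at 4 hpf, 2 at 5 hpf and 0 at 6 hpf. With 2 pg at 6 hpf, where p4hb was lowest, 2 were called lower and 0 higher, against 0.859% and 0.384% of all genes. ERP44, which retains secretory proteins in the endoplasmic reticulum, fell from 93.1 ± 5.23 to 53.5 ± 11.6 CPM (−0.80 ± 0.17, adjusted p = 0.0130). PDIA5 fell from 18.1 ± 1.73 to 9.43 ± 2.02 CPM (−0.94 ± 0.24, adjusted p = 0.0413). The list's median change was −0.35, next to −0.05 over all genes. Of 30 chaperone and unfolded protein response genes 1 was called lower there and 0 higher, against the same shares of all genes. It was EDEM1, a factor of glycoprotein degradation, at 66.0 ± 6.07 against 109 ± 16.9 CPM (−0.72 ± 0.18, adjusted p = 0.0393). HSPA5, the main chaperone of that compartment, held 150 ± 21.8 CPM with 2 pg and 154 ± 14.3 in controls (−0.04 ± 0.29, adjusted p = 0.969).

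Many of all genes changed with age, collagen genes among them. Between 4 and 5 hpf in controls 33 of the 98 were called higher and 14 lower, against 28.4% and 25.7% of all genes. Those higher included CRTAP, a partner of the prolyl 3-hydroxylase, from 0.268 ± 0.144 to 18.05 ± 18.95 CPM (6.08 ± 0.83, adjusted p = 3.28e-07) and col18a1a, from 13.2 ± 3.64 to 35.6 ± 3.33 CPM (1.43 ± 0.23, adjusted p = 3.48e-06). PLOD3 fell from 67.4 ± 1.67 to 28.3 ± 2.09 CPM (−1.25 ± 0.26, adjusted p = 0.000103). With CHX at 5 hpf 10 of the 98 were called higher than with 10 pg and 19 lower, where 25% and 24.2% of all genes were. CRTAP was among those lower (−2.91 ± 0.68, adjusted p = 0.000685) and PLOD3 among those higher (1.91 ± 0.26, adjusted p = 3.15e-07). The disulfide isomerase list had 7 of 25 higher and 3 lower in that comparison, with PDIA4 at 182 ± 88.9 against 36.7 ± 11.3 CPM (2.30 ± 0.39, adjusted p = 1.16e-05).

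**Figure D4:**
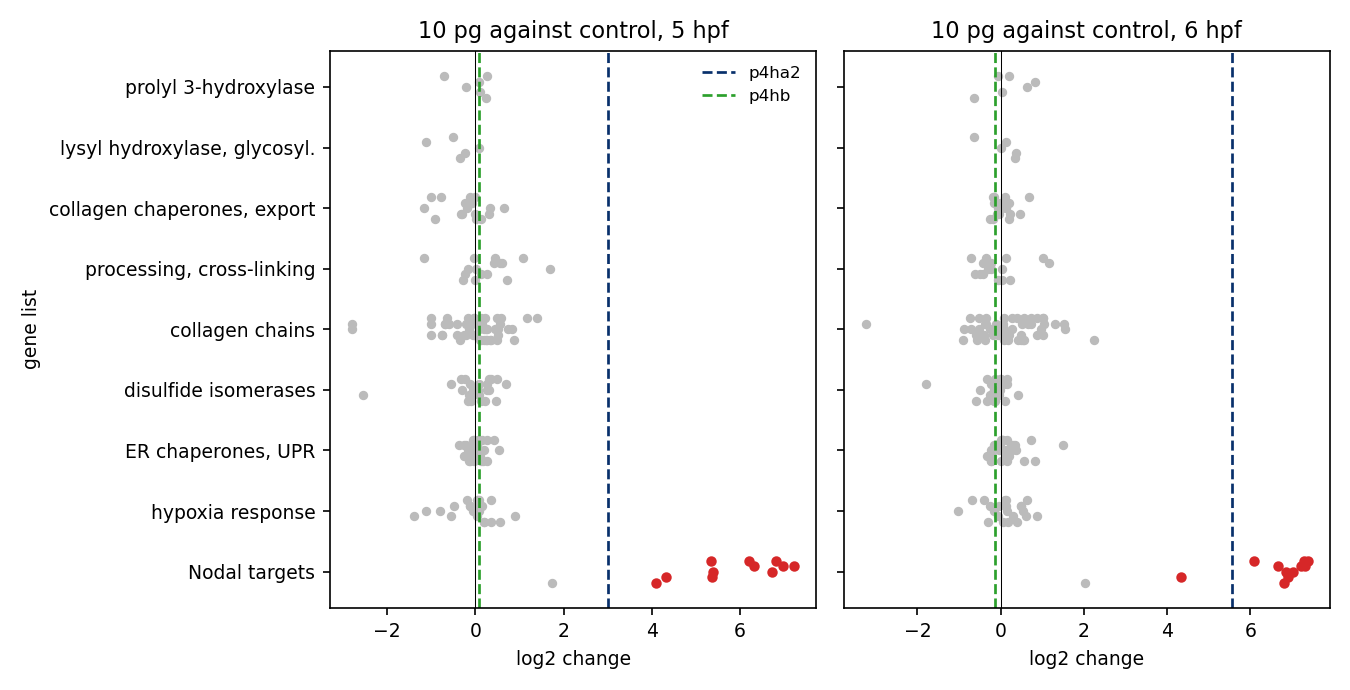
Log2 changes with 10 pg against controls at 5 and 6 hpf, 1 point per tested gene. Rows are the collagen, disulfide isomerase, chaperone, hypoxia response and Nodal target lists. Dashed lines mark p4ha2 and p4hb. Red points passed an adjusted p of 0.05 and grey points did not. No gene of the collagen, disulfide isomerase and chaperone lists is red at 5 or 6 hpf.

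The genes whose group means followed each member most closely were ranked by Pearson correlation of log2 levels over the 15 groups, among 13278 genes that reached 5 CPM in a group. For p4ha2 the first 5 were SPRY2 (0.95), kirrel3l (0.95), WNT5B (0.95), FOXD3 (0.94) and pcdh8 (0.93). SPRY2, an antagonist of receptor tyrosine kinase signals, stood at 13.3 CPM in 6 hpf controls, 55.5 CPM with 10 pg and 24.8 CPM with CHX. WNT5B, a Wnt ligand, stood at 1.70, 17.98 and 6.83 CPM in the same groups. For p4hb they were GDPD2 (0.98), nrxn2a (0.97), ADGRB3 (0.97), UBE2J1 (0.97) and CBR1 (0.97). UBE2J1, a ubiquitin-conjugating enzyme of the endoplasmic reticulum, stood at 38.5 CPM in 6 hpf controls, 37.9 CPM with 10 pg and 65.8 CPM with CHX. These correlations describe 15 points that share ages, treatments and library scaling.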

How the data were processed

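Bulk RNA-seq libraries (45, in 15 groups named from the sample titles) were deposited by the authors as 1 table of raw counts per Ensembl gene. STAR, featureCounts, DESeq2 and the GRCz11 build are listed in the submitters' processing notes. No version, strand setting or annotation release is given in the sources used here. Without a stated strand, overlapping and antisense genes cannot be told apart. The members and gene lists were chosen with earlier results of these data known.

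The table had 31465 genes, of which 28965 were matched to a symbol. At 4 hpf 2 columns were identical, and both were left out. The highest share of equal counts in another pair was 29.36%. Median depth was 20959131 counts, so a level under 1 CPM rests on few counts.

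The main model used edgeR 4.0.16 under R 4.3.3 on the counts of 43 libraries, with TMM factors, a coefficient for each group and edgeR's robust quasi-likelihood test. It left 28 residual degrees of freedom, and the common dispersion was 0.128. filterByExpr with a minimum count of 10 and a total of 15 kept 21075 genes. p-values were adjusted by the Benjamini-Hochberg method over all genes within each of 33 comparisons. Members were tested in the 22 that hold no library of 6 hpf without CHX. Standard errors are the log2 change divided by the root of the F statistic, and intervals are 95%. Gene lists had 312 entries, of which 298 matched 293 genes. Of each list, up to 4 genes could be named: those called by smallest adjusted p, otherwise those most abundant. Not all are printed. The test was tried on simulated data first.

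Alternatives were RLE scaling, library totals, no count filter, fitting each age alone, a block on replicate number, other uses of the shared column, DESeq2 1.42.0 and leaving out 1 library. Comparisons of 4 with 5 hpf within 2 pg and within 6 pg, and the age difference of the CHX effect, were added after the data were seen. The titles give the replicate numbers. Deviations from group means of same-numbered libraries (11068 genes) correlated between −0.541 and 0.804. Every pair was over 0.1 in 9 of 28 comparisons.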

Additional observations from a re-analysis of the deposited data

Results flagged for a closer look

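Every library with 2, 6 or 10 pg and no CHX held more p4ha2 at 6 hpf than any 5 hpf library of its dose. The 6 hpf controls lay just below the 5 hpf controls, at most 0.753 CPM against at least 0.777 CPM (16 and 17 counts). Their fitted change was −0.50, with a 95% interval from −1.81 to 0.80. With CHX the 2 ages overlapped. The change exceeded the change in controls by 3.53 on the log2 scale with 2 pg, 2.45 with 6 pg and 2.56 with 10 pg. These differences use the values that chose the gene and were not tested. With CHX all 5 hpf libraries held more p4hb than any 4 hpf library, a change not called (adjusted p = 0.0787). With 2 pg or 6 pg all held less, called with 6 pg (adjusted p = 0.0263) and not with 2 pg (adjusted p = 0.0574). Of all genes 9.71% were called higher with CHX, and 20.8% and 23.3% lower with 2 and 6 pg. The changes differed by 0.86 between CHX and 2 pg and by 0.92 between CHX and 6 pg, and these differences were not tested either. The column shared by 2 groups of 4 hpf, which was left out of the comparisons in the report and used only in alternatives, held 47 counts of p4ha2, or 2.29 CPM by its library total, above the controls of that age. By library total the other libraries of those groups held 1.09 and 0.629 CPM with 10 pg and 1.53 and 1.81 CPM with CHX.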

How the results depend on the processing

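Under settings that kept all libraries, 436 recomputed member values kept their direction and side of the threshold or stayed within the replicate spread. They include values that were not called in any setting. Of the rest, 12 became called, 3 lost their call, 3 changed sign and 6 moved beyond that spread. With 1 library left out, 394 were the same, 7 became called, 13 lost their call and 20 changed sign. With libraries scaled by their totals, the median of all genes moved by up to 0.56 in the CHX comparisons and by −0.44 between 4 and 5 hpf in controls. Under it p4hb changed sign near 0, to −0.13 with 2 pg at 4 hpf, −0.047 with 6 pg at 5 hpf and −0.28 for 10 pg from 4 to 5 hpf. At 5 hpf CHX against controls became called at 1.71 (p4ha2) and 0.76 (p4hb), and CHX against 10 pg at 0.56 (p4hb), as did p4hb from 4 to 5 hpf in controls at −0.64 and, in an added comparison, with 2 pg at −0.72. At 6 hpf CHX against controls was 3.79 (p4ha2) and 1.26 (p4hb), CHX against 10 pg was −1.72 and 1.45, and p4hb from 5 to 6 hpf was −1.34 with 2 pg and −1.12 with 6 pg. With libraries of the same age only, p4ha2 at 5 hpf was no longer called, at 3.02 with 10 pg, 3.19 with 6 pg and 3.05 per 10 pg, and p4hb with CHX against controls was called at 0.35. p4ha2 with CHX against controls at 4 hpf became called with all 45 columns (3.03), with the shared column as CHX (3.02) and in DESeq2 (2.97), where 2 pg at 4 hpf was called too (1.85). The added age difference of the CHX effect was called with the shared column as CHX (−2.87) and in DESeq2 (−2.75). A replicate block changed no member's call: p4ha2 with 10 pg at 5 hpf was 2.98 under it (adjusted p = 0.0141). Every library correlated best with its own number in 7 of 22 comparisons with 3 pairs. They included CHX against controls and against 10 pg at 5 and 6 hpf, and 10 pg against controls at 6 hpf. The rest were 6 against 5 hpf with 2 pg and with 6 pg. Against controls at 5 hpf, 0 of 6 libraries did so with 2 pg, 2 with 6 pg and 3 with 10 pg. The block gave a number the same effect in all groups, so it cannot test a pairing held by only some of them. A fit with pairs in the 7 comparisons alone was not run.

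Leaving out 1 library gave these ranges of log2 change. For p4ha2 they were 2.25 to 3.40 with 6 pg and 1.19 to 2.51 with 2 pg at 4 hpf, 1.47 to 2.67 with 10 pg, 2.45 to 3.6 for CHX against controls, 0.59 to 1.38 for CHX against 10 pg and 1.3 to 2.29 per 10 pg at that age, 2.01 to 3.17 from 4 to 5 hpf in controls, 0.33 to 1.54 for the age difference of the 10 pg effect, −0.29 to 0.73 for 10 against 2 pg at 4 hpf, 2.81 to 3.24 with 10 pg and 2.53 to 3.59 with 6 pg at 5 hpf, and 0.010 to 1.61 for CHX against controls and −3.00 to −1.40 against 10 pg at 5 hpf. Within CHX they were −0.42 to 1.18 from 4 to 5 hpf and 1.17 to 2.77 from 5 to 6 hpf, and the CHX age difference ran from −3.92 to −2.32. For p4hb they were −0.37 to 0.059 with 10 pg, −0.081 to 0.24 with 2 pg, −0.42 to 0.012 for 10 against 2 pg, −0.41 to 0.018 for CHX against 10 pg and −0.31 to 0.10 per 10 pg at 4 hpf, −0.0060 to 0.20 with 10 pg and −0.091 to 0.12 with 6 pg at 5 hpf, and −0.18 to 0.25 for 10 pg, −0.47 to −0.34 for 2 pg and −0.56 to −0.35 for 6 pg from 4 to 5 hpf. The causes were not tested. Counts over all genes moved by more than 1.5 times in places. For 10 pg at 4 hpf, 29 genes were higher and 2 lower (DESeq2 71 and 16). Without 1 library these counts ran from 17 to 250 and from 0 to 335, the highest without replicate 1 of 10 pg. At 5 hpf 47 were higher (9 with the same age only) and 0 lower, and without 1 library 30 to 61 and 0 to 26, the highest without control replicate 3. At 6 hpf 100 were higher, and without 1 library 64 to 90, with 0 to 2 lower. For 2 pg at 6 hpf 81 were higher (677 with the same age only, 238 in DESeq2) and 181 lower (422 by library totals, 108 without the filter, 420 with the same age only, 394 in DESeq2), and without 1 library 18 to 76 and 25 to 161. The shares of all genes called in these comparisons move with the counts. The low counts of p4ha2 in controls limit its precision.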
